A study of Rattus norvegicus with 6 samples.

Results

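Insulin-like growth factor (IGF) signalling was examined through 10 genes: the ligands Igf1 and Igf2, the receptors Igf1r and Igf2r, and the binding proteins Igfbp2, Igfbp3, Igfbp4, Igfbp5, Igfbp6 and Igfbp7. Members were the rows whose symbol equals one of these names, and all 10 were found among the 31038 rows of each count file. RNA had been sequenced from rat cells that the labels call myocardial and NRVM, with the myocardium of rat embryos as origin, kept in DMEM with fetal bovine serum. Of the 6 libraries, 3 came from cells given a control siRNA and 3 from cells given an siRNA against eIF3m, a subunit of translation initiation factor 3. The labels give no strain, siRNA dose or time after transfection, and a differentiation medium with dexamethasone, isobutylmethylxanthine and insulin is described without saying whether any of the cells received it. Insulin and serum both act on this pathway.

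The ligands IGF1 and IGF2 signal through the tyrosine kinase IGF1R, which recruits insulin receptor substrates and activates phosphoinositide 3-kinase, Akt and mTOR. IGF2R binds IGF2 without passing on a growth signal and carries it to lysosomes, as it does enzymes tagged with mannose 6-phosphate. Secreted binding proteins hold IGFs in the medium or matrix, and proteases that cut them set the ligand free. Igf2 is an imprinted gene of fetal growth that falls silent in most rodent tissues after birth, and IGF2 and IGFBP5 are both made by differentiating muscle cells.

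Totals ranged from 2156186 counts in eIF3m replicate 2 to 10061575 in eIF3m replicate 1. Levels are CPM, each count relative to the library total scaled by the trimmed mean of M-values (TMM), and they are not compared between genes because transcript lengths were not used. Triplets of values run over replicates 1, 2 and 3. The targeted transcript, Eif3m, was lower in the eIF3m libraries (log2 fold change -0.64 ± 0.05 SE), at 137.8 ± 2.58 CPM in controls against 87.65 ± 3.92 CPM (mean ± SD of 3 libraries, here and below; edgeR quasi-likelihood test, adjusted p = 1.41e-07). The labelled cell type was checked against 13 cardiomyocyte markers: Tnnt2 and Pln were expressed, the other 11 stood at no more than 2.42 CPM in any library, and Myl3 had no count in any. Their sum, nearly all of it Tnnt2, was 390.2 to 403.9 CPM in controls and 149.9 to 166 CPM in eIF3m libraries, and its part in the results was not tested. The library eIF3m replicate 1 stood apart. In it 9 of 9 red blood cell markers and 10 of 11 endothelial markers were at their highest, summing to 6265 and 213.9 CPM against 33.68 to 234.9 and 34.67 to 51.63 CPM in the other 5 libraries. Leukocyte markers were highest there for 5 of 7 (51.3 against 20.75 to 31.34 CPM) and fibroblast markers for 6 of 9 (17130 against 15320 to 16870 CPM). The fibroblast sum, mostly Col1a1, was 16530 to 17130 CPM in eIF3m libraries and 15320 to 15500 CPM in controls. It thus parted the groups more than it set this library apart. Separate cultures are not stated for the replicates, so the p-values reflect only how these samples spread, and that spread may be technical.

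With eIF3m siRNA, Igfbp4 rose and 5 of the 10 members fell (Igf2, Igf1r, Igf2r, Igfbp5 and Igfbp7). Igfbp6 was also called higher, on few counts outside eIF3m replicate 1 and not with robust dispersion (adjusted p = 0.113), while Igf1, Igfbp2 and Igfbp3 had too few counts to be tested. Calls are edgeR quasi-likelihood tests with Benjamini-Hochberg adjusted p under 0.05. Among all 12724 genes tested, 38.7% were called, 17.4% higher and 21.2% lower, so a call is common in this comparison. Unscaled library totals gave 4126 genes higher and 1684 lower and upper-quartile scaling 3015 and 2130, against 2220 and 2700, with the same 2 higher and 5 lower among the members. The 7 members tested passed a filter on low counts, and Igfbp6 passed it through the eIF3m libraries, so that 7 of 7 calls is not read as a property of the family. Their median log2 fold change was -0.43, and that of all genes tested was 0.01. In each of the 7 the libraries of the groups did not overlap, which was true of 48.6% of genes tested. With all control libraries under the filter's cutoff, Igfbp6 could pass only if every eIF3m library was above it. Its separation was thus fixed by the filter and is no support. Without eIF3m replicate 1 the counts were again 2 higher and 5 lower, against 15.0% and 19.1% of 12925 genes.

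**Figure D1:**
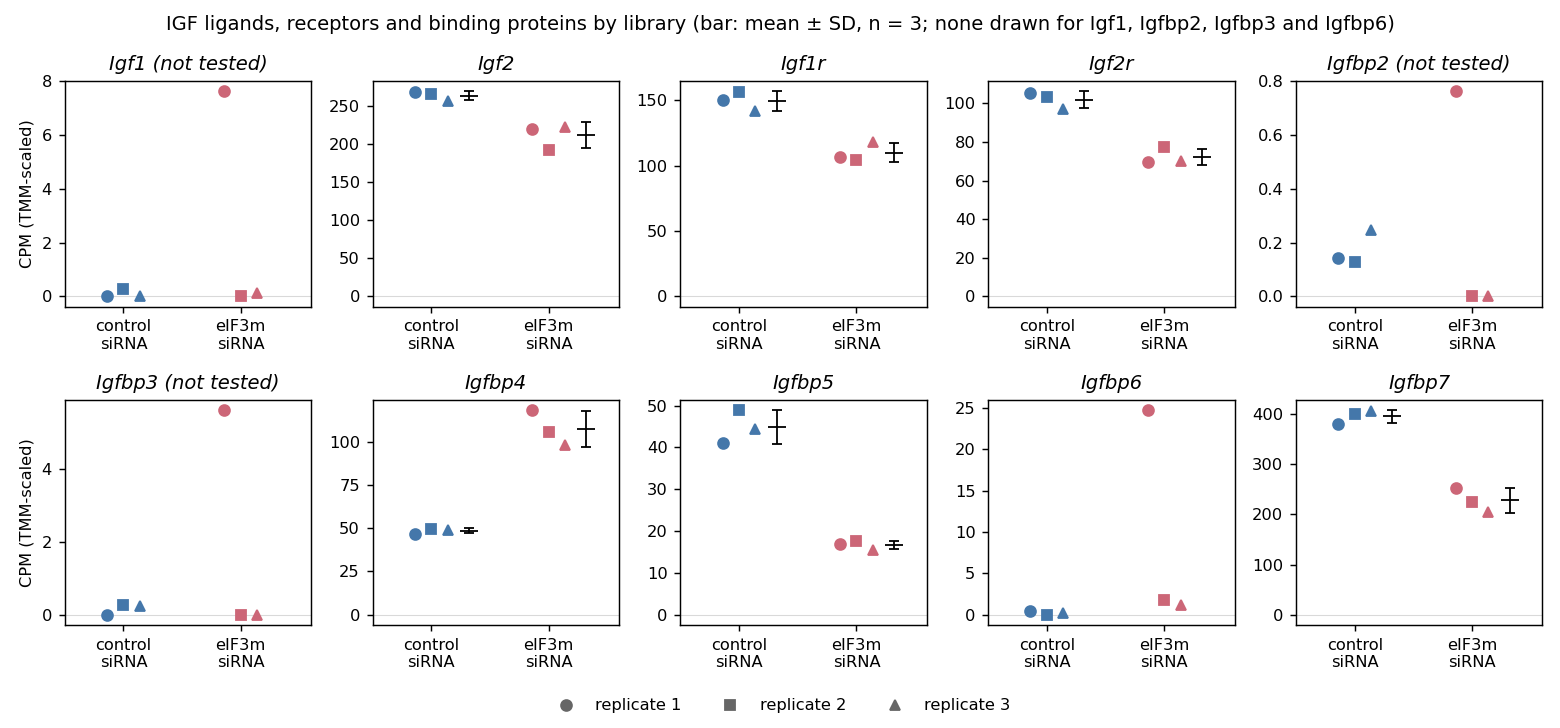
Level of each member in CPM (vertical axes, TMM-scaled, from 0) in 3 control siRNA libraries (blue) and 3 eIF3m siRNA libraries (red). Symbols give the replicate and bars the mean ± SD (n = 3), left out for 4 genes whose levels rest on eIF3m replicate 1. Igfbp4 is higher and Igf2, Igf1r, Igf2r, Igfbp5 and Igfbp7 are lower in every eIF3m library, and Igf1, Igfbp2, Igfbp3 and Igfbp6 are highest in eIF3m replicate 1.

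Of the ligands, Igf2 was expressed and fell slightly. The control libraries gave 268.4, 265.7 and 257 CPM and the eIF3m libraries 220.4, 193 and 223.1 CPM. Every eIF3m library lay below every control library. The mean went from 263.7 ± 5.94 to 212.2 ± 16.7 CPM, a log2 fold change of -0.30 ± 0.06 SE (edgeR adjusted p = 4.84e-04), the smallest change among the 7 members tested. In bulk RNA, fewer cells that express a gene and less of its RNA per cell cannot be told apart. The fall was -0.16 when library totals were left unscaled, a setting that moved the median of all genes to 0.16, so relative to that median it was of the same size.

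Igf1, the ligand that mediates growth hormone action, was near the limit of detection in 5 libraries. Its counts were 0, 2 and 0 in controls and 80, 0 and 1 in eIF3m libraries. The 80 counts amount to 7.63 CPM, and 3 counts, taken as the floor, are worth 0.286 to 1.32 CPM depending on the library. Igf1 RNA was thus seen above the floor in 1 library, the one where blood and endothelial markers were highest, and the part of those cells in its level was not tested.

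Both receptors fell. Igf1r, the signalling receptor, stood at 149.8, 156.5 and 141.5 CPM in controls and at 106.9, 104.2 and 117.9 CPM in eIF3m libraries. Its mean went from 149.3 ± 7.52 to 109.7 ± 7.27 CPM (log2 fold change -0.43 ± 0.06 SE, edgeR adjusted p = 3.01e-05). Igf2r, the receptor that clears IGF2, stood at 105.2, 103.6 and 97.1 CPM in controls and at 69.89, 77.28 and 70.17 CPM in eIF3m libraries (from 102.0 ± 4.31 to 72.45 ± 4.19 CPM, -0.51 ± 0.06 SE, adjusted p = 4.08e-06). The groups were apart for both. The ratio of Igf2r to Igf1r counts within a library was 0.703, 0.662 and 0.686 in controls and 0.654, 0.742 and 0.595 in eIF3m libraries. Those ranges overlapped, and a mean of 0.684 ± 0.02 beside one of 0.664 ± 0.07 is a gap smaller than the SD of the eIF3m group.

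The binding proteins Igfbp4 and Igfbp5 moved in opposite directions. IGFBP4 is a soluble inhibitor of IGF action that is cut by the protease PAPP-A, and IGFBP5 binds to extracellular matrix and is made by differentiating myoblasts. Igfbp4 stood at 46.82, 49.78 and 48.8 CPM in controls and at 118.4, 105.5 and 98.24 CPM in eIF3m libraries. Its mean rose from 48.47 ± 1.5 to 107.4 ± 10.2 CPM, 2.23-fold (1.16 ± 0.07 SE on the log2 scale, edgeR adjusted p = 5.27e-09). Without eIF3m replicate 1 it was 1.06 ± 0.07. Red blood cell markers were also above the controls in eIF3m replicate 2, at a sum of 234.9 CPM against 33.68 to 79.64 CPM, and their part in the level of Igfbp4 was not tested.

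Igfbp5 stood at 41.02, 49.01 and 44.49 CPM in controls and at 16.88, 17.66 and 15.59 CPM in eIF3m libraries. No eIF3m library reached the lowest control. The mean fell from 44.84 ± 4.004 to 16.71 ± 1.04 CPM (log2 change -1.44 ± 0.10, edgeR adjusted p = 2.37e-08), the largest fall in the family. The sum of skeletal myoblast markers was 85.38 to 90.83 CPM in controls and 44.26 to 49.46 CPM in eIF3m libraries, and the difference lay mostly in Des, Myog and Myh3. Myod1, the myogenic determination factor, was at 15.94 ± 2.46 and 15.93 ± 3.17 CPM (-0.09 ± 0.16 SE, edgeR adjusted p = 0.705). Myf5 stayed at or under 0.1415 CPM and Pax7, which marks muscle stem cells, had no count. The part of such cells in the level of Igfbp5 was not tested.

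The count of Igfbp4 relative to Igfbp5 in the same library does not depend on how libraries are scaled. The ratio was 1.14, 1.02 and 1.1 in controls and 7.02, 5.98 and 6.3 in eIF3m libraries, or 1.08 ± 0.06 beside 6.43 ± 0.53. The groups were far apart. The pair joins a member that rose and the one that fell most, so this gap follows from their fold changes and is no separate support. An exact permutation test over 3 against 3 libraries cannot give a two-sided p below 0.1, so the ratio is given without one.

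The sequence before the start of each of these genes is shown because they moved apart, with Igfbp7 added as the other binding protein expressed in every library. Each line holds the 250 bases upstream of the gene start from RefSeq (assembly GRCr8), 5′ to 3′ on the gene's strand. Igfbp4 lies on the plus strand (chr10:84491221-84491470), Igfbp5 on the minus strand (chr9:81914188-81914437) and Igfbp7 on the plus strand (chr14:31091486-31091735). Capitals mark TATAAA and GGGCGG, read on both strands.
Igfbp4: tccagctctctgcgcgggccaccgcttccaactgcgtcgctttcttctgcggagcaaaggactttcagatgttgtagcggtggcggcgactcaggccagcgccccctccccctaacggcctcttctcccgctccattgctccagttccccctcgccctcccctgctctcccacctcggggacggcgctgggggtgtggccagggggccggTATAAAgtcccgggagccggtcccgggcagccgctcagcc
Igfbp5: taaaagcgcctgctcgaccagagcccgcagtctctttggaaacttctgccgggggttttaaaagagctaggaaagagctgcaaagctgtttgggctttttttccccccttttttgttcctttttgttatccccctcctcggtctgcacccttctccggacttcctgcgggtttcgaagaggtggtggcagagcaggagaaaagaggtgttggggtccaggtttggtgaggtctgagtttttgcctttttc
Igfbp7: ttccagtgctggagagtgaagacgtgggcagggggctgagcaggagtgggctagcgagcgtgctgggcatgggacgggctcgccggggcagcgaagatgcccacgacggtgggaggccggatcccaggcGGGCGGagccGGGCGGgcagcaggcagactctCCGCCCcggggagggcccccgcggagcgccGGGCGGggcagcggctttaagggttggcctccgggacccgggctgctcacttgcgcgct

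The windows differ in these letters. That of Igfbp4 holds TATAAA 40 bases before the start, a motif found in 12.9% of 33469 such windows, and no GGGCGG. That of Igfbp7 holds 4 copies of GGGCGG, a motif found at least once in 30.5% of windows, and 74.4% of its bases are G or C. That of Igfbp5 holds neither motif, and no CANNTG, the E-box core that myogenic factors bind and that 65.5% of windows hold. Its G and C content was 51.6%, close to the median of 51.2% over all windows. CCAAT, present in 34% of windows, was found in 0 of the 11 windows that the table gives for the 10 members (Igf2 has 2). These matches describe letters and say nothing about binding.

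Igfbp7 fell with Igfbp5. IGFBP7 binds IGFs weakly and is secreted into the matrix by fibroblasts and vascular cells. It stood at 380.8, 400.6 and 405.4 CPM in controls and at 253.5, 225.7 and 204.3 CPM in eIF3m libraries, and the mean fell from 395.6 ± 13.0 to 227.8 ± 24.7 CPM (log2 fold change -0.79 ± 0.06 SE, edgeR adjusted p = 1.44e-07). The groups did not overlap, and eIF3m replicate 1 was the highest of its group. Smooth muscle markers summed to 5652 to 5791 CPM in controls and 3687 to 3881 CPM in eIF3m libraries, a sum made up mostly of Acta2, Tagln and Pdgfrb. Notch3, of the same list, went the other way, from 26.75 ± 0.65 to 69.93 ± 1.62 CPM (1.39 ± 0.07 SE, edgeR adjusted p = 4.71e-10). The part of such cells in Igfbp7 was not tested.

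By distance between patterns over the 6 libraries in log2 CPM, each centred on its own mean, the genes most like Igfbp7 among 10477 candidates were Fam46b, Gpx1, Myl9, Fig4 and Tbc1d17. Their distances ran from 0.1 to 0.137. Gpx1, a glutathione peroxidase, fell from 262 ± 5.39 to 152.4 ± 11.6 CPM, and Myl9, a myosin light chain of smooth muscle and nonmuscle cells, from 615.3 ± 12.03 to 343.4 ± 25.7 CPM.

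Igfbp6 had the highest fold change of the family, and its size rests on 1 library. IGFBP6 prefers IGF2 over IGF1 and is made by fibroblasts. Its counts were 3, 0 and 2 in controls and 260, 4 and 10 in eIF3m libraries, or 0.424, 0 and 0.246 CPM beside 24.8, 1.77 and 1.2 CPM. All control libraries were at or under the floor of 3 counts. The fitted log2 fold change was 5.54 ± 1.151 SE (edgeR adjusted p = 0.00134), a fitted value that is no bound. It was 2.54 ± 0.87 without eIF3m replicate 1 (adjusted p = 0.0282). In eIF3m replicates 2 and 3 together 14 counts were found, and in the 3 controls 5, a ratio per scaled count of 6.09 with a 95% exact binomial interval of 2.07 to 21.6 that covers counting error only. Igfbp6 passed the low-count filter only through its eIF3m counts. The fold changes, p-values, ratio and interval use those same counts, so they are biased upward and are no separate support for a rise. With robust dispersion Igfbp6 did not pass (adjusted p = 0.113), and DESeq2 gave it a log2 fold change of 5.39 but no p-value.

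Igfbp3 and Igfbp2 were close to absent outside eIF3m replicate 1. IGFBP3 is the main IGF carrier of blood plasma, and IGFBP2 is abundant in fetal tissues. Igfbp3 had 0, 2 and 2 counts in controls and 59, 0 and 0 in eIF3m libraries, so that its 5.63 CPM in eIF3m replicate 1 (95% exact Poisson interval 4.28 to 7.26) stood alone. Igfbp2 had 1, 1 and 2 counts in controls and 8, 0 and 0 in eIF3m libraries. Neither passed the filter. With no filter Igf1 (log2 fold change 4.88, adjusted p = 2.36e-11) and Igfbp3 (3.56, adjusted p = 1.39e-06) were called higher although eIF3m replicates 2 and 3 were at or under the floor, and Igfbp2 was not (0.87, adjusted p = 0.619).

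The 4 low members shared their peak with markers of other cell types. In eIF3m replicate 1 the globin Hbb reached 2137 CPM, while the controls gave 20.51, 23.87 and 10.94 CPM and the remaining eIF3m libraries 72.86 and 17.39 CPM. Pecam1 and Tie1 of endothelium stood at 11.1 and 7.44 CPM there and at no more than 0.246 CPM elsewhere. Ptprc, the leukocyte antigen CD45, was at 7.15 CPM there and at no more than 0.1415 CPM elsewhere. The exceptions were Egfl7 of the 11 endothelial markers and Cd14 and Cd68 of the 7 leukocyte markers. Egfl7 was at 25.55 CPM there and 30.36 to 35.93 CPM in controls, and Cd14 at 20.12 against 25.27 to 29.01 CPM. Cd68 was at 1.907 CPM there and at 1.98 CPM in control replicate 1. Fibroblast markers were mixed: Thy1, Ddr2 and Postn were not highest in that library, and Tcf21 had 1 count in all, under the floor. The genes whose patterns lay nearest to that of Igfbp6 were Dcn, LOC108348083, Hbb, Hba1 and Rmrp, at distances of 3.32 to 3.69. Igfbp6 had 3, 0 and 2 counts in controls, where counting noise adds to a distance in log2 CPM. Its distances are therefore not compared with those for Igfbp7, and how closely any of these genes follows Igfbp6 cannot be said. Dcn, a fibroblast proteoglycan, had 55.4 CPM in eIF3m replicate 1, beside 2.21 and 1.799 CPM in the other eIF3m libraries. Rmrp and LOC108348083 are in none of the marker lists. Rmrp was at 644, 34.89 and 5.398 CPM in eIF3m libraries. LOC108348083 was at 29.08, 26.5 and 1.439 CPM, so its level was nearly as high in eIF3m replicate 2. What cells of the listed types add to the 4 members was not tested.

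**Figure D2:**
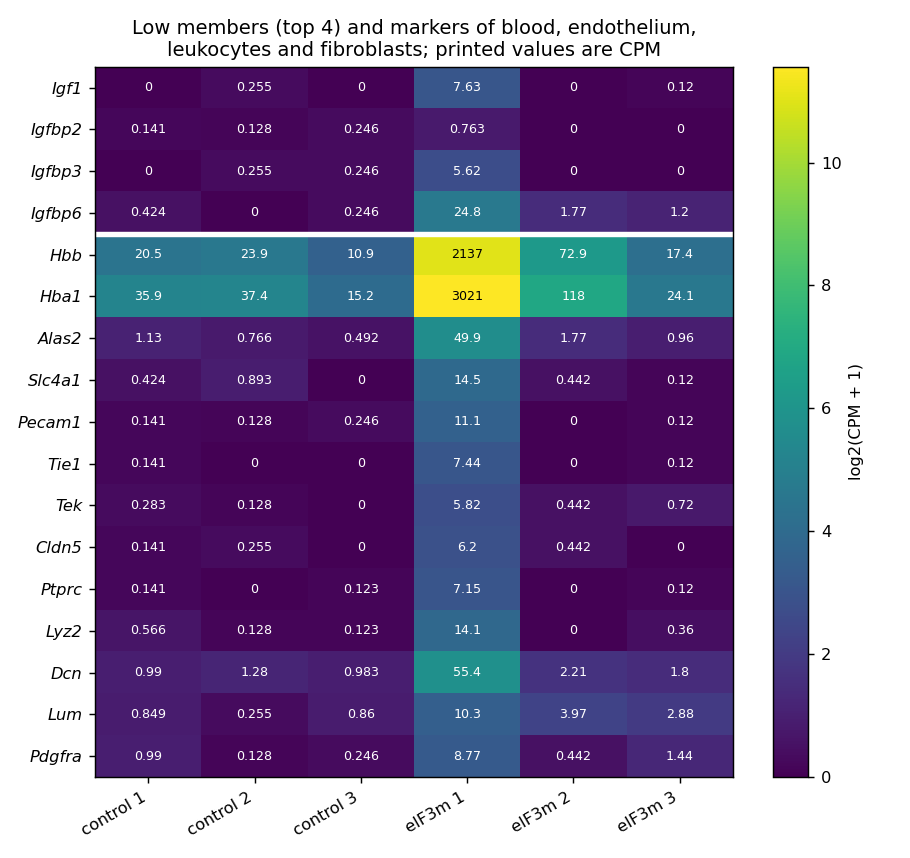
Level in each of the 6 libraries (columns) of 4 IGF genes (top) and of 13 markers of red blood cells, endothelium, leukocytes and fibroblasts picked from the listed ones after their values were seen (bottom). Colour gives log2(CPM + 1) and the printed values are CPM. All 17 genes are highest in eIF3m replicate 1, where Igfbp6 is at 24.8 and Igf1 at 7.63 CPM. For the 13 markers this follows from the choice and is no result. Listed markers that were left out, such as Thy1, Cd14 and Egfl7, were not highest there.

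**Figure D3:**
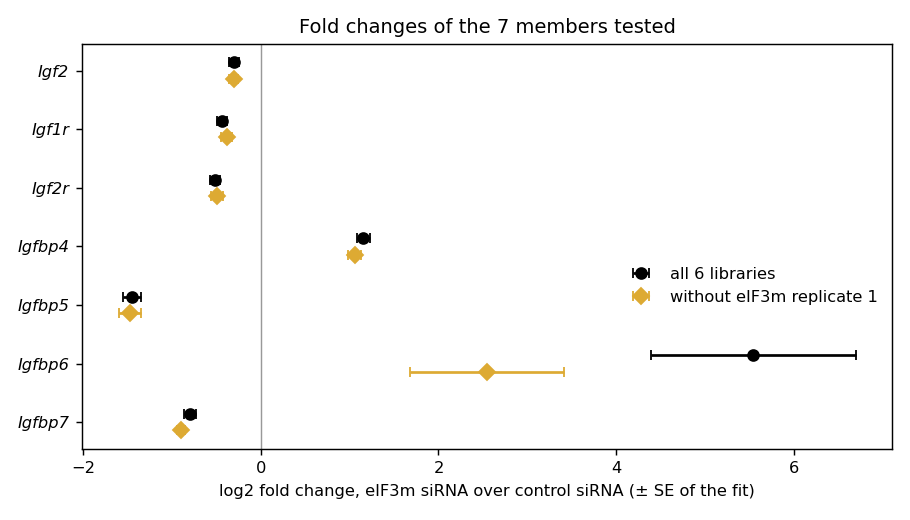
Log2 fold change of eIF3m over control siRNA (horizontal axis) with the SE of the edgeR fit for the 7 members tested, over all 6 libraries (black) and without eIF3m replicate 1 (yellow). Igfbp6 moves from 5.54 to 2.54, and the other 6 stay close to their first value.

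Genes beside the members were read from lists of the pathway. Among other binding proteins and their regulators, 0 rose and 3 fell of 8 tested, with a median log2 fold change of 0.09. Of all genes tested 17.4% were called higher and 21.2% lower, so nothing is read from this count. The secreted serine protease Htra1 fell from 4554 ± 33.9 to 2821 ± 126 CPM (-0.69 ± 0.02 SE, edgeR adjusted p = 2.87e-12), and the metalloproteases Adam12 and Adam9 were at -0.66 ± 0.05 and -0.45 ± 0.07. The IGFBP4 protease Pappa was at 4.92 ± 1.602 and 6.76 ± 1.94 CPM (0.50 ± 0.28, adjusted p = 0.183), and its inhibitor Stc2 at 34.1 ± 1.12 and 35.7 ± 5.35 CPM (0.02 ± 0.10, adjusted p = 0.883). Neither passed the test, nor did the related protease Pappa2 (0.15 ± 0.33, adjusted p = 0.759). The binding protein Igfbp1 had 1 count in the 6 libraries.

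Among related receptors, 0 rose and 2 fell of 5 tested (median -0.22), beside 17.4% higher and 21.2% lower among all genes tested. Lrp1, an endocytic receptor that binds IGFBP3, fell from 1834 ± 39.3 to 1269 ± 4.95 CPM (-0.53 ± 0.02 SE, edgeR adjusted p = 2.37e-11). Gnptg, a subunit of the enzyme that makes the mannose 6-phosphate tag read by IGF2R, fell by 0.82 on the log2 scale. Gnptab, of the same enzyme and named after its values were seen, was at 93.33 ± 3.07 and 93.37 ± 3.05 CPM. It did not pass (0.01 ± 0.05 SE, edgeR adjusted p = 0.909). M6pr, the other mannose 6-phosphate receptor and named after its values were seen, did not pass over all libraries (0.65 ± 0.35, adjusted p = 0.168) but rose without eIF3m replicate 1 (1.06 ± 0.28, adjusted p = 0.00519). Its 20.03 CPM in eIF3m replicate 3 stood apart from 6.388 and 5.299 CPM in eIF3m replicates 1 and 2 and 7.34 ± 0.61 in controls. The insulin receptor Insr, which can pair with IGF1R, was at 44.99, 46.2 and 46.58 CPM in controls and at 34.99, 48.13 and 40.79 CPM in eIF3m libraries. It did not pass (-0.22 ± 0.09, adjusted p = 0.0751) but passed without eIF3m replicate 2 (-0.28, adjusted p = 0.0195), with limma-voom (0.0331) and with no filter (0.0216).

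Of 9 receptor adaptors, 1 rose and 2 fell (median -0.02), beside 17.4% higher and 21.2% lower among all genes tested. Both insulin receptor substrates fell: Irs1 from 24.8 ± 0.95 to 15.9 ± 1.52 CPM (-0.66 ± 0.11 SE, edgeR adjusted p = 2.67e-04) and Irs2 from 175.4 ± 4.26 to 143.9 ± 6.23 CPM (-0.28 ± 0.05, adjusted p = 4.15e-04). Grb14, an adaptor that inhibits the insulin receptor, rose from 51.9 ± 3.804 to 68.4 ± 8.99 CPM (0.44 ± 0.08, adjusted p = 4.22e-04). Its relative Grb10 was at 153.0 ± 3.36 and 156.4 ± 1.29 CPM (0.03 ± 0.05, adjusted p = 0.617).

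In the list of PI3 kinase, Akt and mTOR genes 4 rose and 4 fell of 22, with a median of -0.004, close to the shares among all genes tested (17.4% higher and 21.2% lower), so nothing is read from the count. Gsk3b, a kinase that Akt inhibits, rose by 0.25, Rictor, of mTOR complex 2, by 0.31, Pik3r3, a regulatory subunit, by 0.43, and Foxo1, a transcription factor that Akt holds in the cytoplasm, by 0.75 on the log2 scale. Those that fell were Rptor, the defining subunit of mTOR complex 1 (-0.33), Akt2 (-0.21), Rheb, the GTPase that activates mTOR complex 1 (-0.19), and Mtor (-0.20, adjusted p = 0.0465). Foxo1, Rptor, Akt2, Rheb and Mtor were named after their values were seen. Mtor lost its call in most alternatives, among them DESeq2 (adjusted p = 0.196), a replicate block (0.0852) and leaving out any 1 library other than control replicate 1 (0.0614 to 0.194). Foxo1 did not pass without control replicate 1 (adjusted p = 0.0805) or eIF3m replicate 1 (0.0745), nor Pik3r3 without eIF3m replicate 3 (0.0652). The 4 that fell did not pass when libraries were left unscaled (adjusted p from 0.102 to 0.579), nor did Akt2 (0.0551) and Rheb (0.0819) with upper-quartile scaling, nor Rheb with DESeq2 (0.0572).

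**Figure D4:**
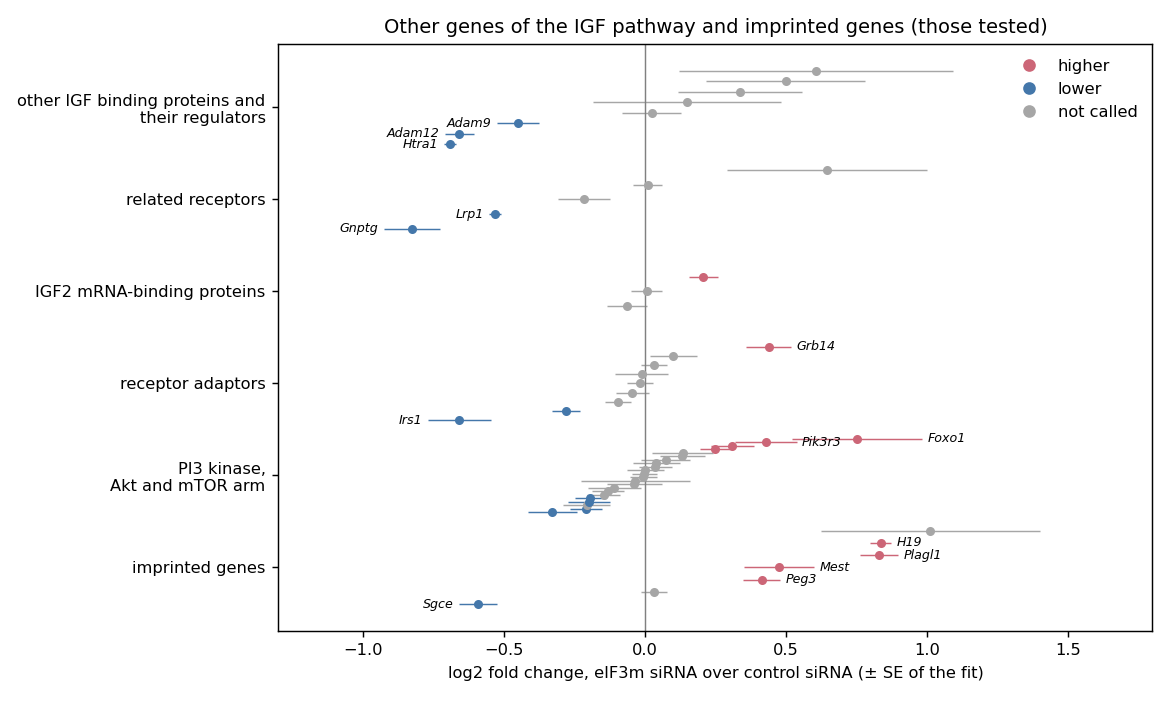
Log2 fold change of eIF3m over control siRNA (horizontal axis, with the SE of the edgeR fit) for the tested genes of 6 lists (rows); red and blue points passed the test as higher or lower. Grb10 is in 2 lists. Htra1, Adam12 and Adam9 fell by 0.45 to 0.69, and the PI3 kinase list has 4 higher and 4 lower.

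IGF2 mRNA-binding proteins bind the Igf2 message and regulate its translation and stability. Of these, Igf2bp1 rose from 89.6 ± 2.87 to 103.3 ± 0.53 CPM (0.21 ± 0.05 SE, edgeR adjusted p = 0.00483). Igf2bp2 (0.01 ± 0.05, adjusted p = 0.953) and Igf2bp3 (-0.06 ± 0.07, adjusted p = 0.509) did not pass.

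Igf2 and its neighbour H19 moved apart. H19 is a noncoding RNA made from the maternal chromosome, Igf2 is expressed from the paternal one, and both share enhancers; no other coding or long noncoding gene lies between them in RefSeq. H19 stood at 538.8, 546.9 and 542 CPM in controls and at 1015, 983.4 and 907.6 CPM in eIF3m libraries, a log2 fold change of 0.84 ± 0.04 SE (edgeR adjusted p = 1.74e-10). The ratio of H19 to Igf2 counts within a library was 2.01, 2.06 and 2.11 in controls and 4.61, 5.1 and 4.07 in eIF3m libraries, a mean of 2.06 ± 0.05 beside 4.59 ± 0.51. The groups did not overlap, which follows from the opposite moves of the pair and is no separate support. Within its group eIF3m replicate 1 lay between the other 2.

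**Figure D5:**
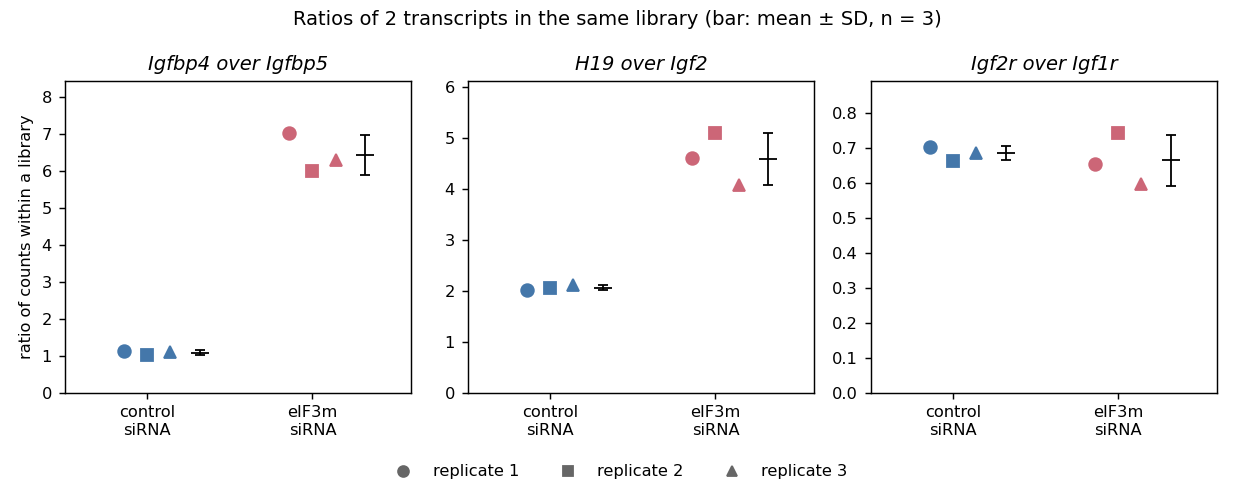
Ratio of the counts of a pair of transcripts in the same library (vertical axes, from 0), by siRNA group and replicate, with mean ± SD (n = 3). Igfbp4 over Igfbp5 goes from 1.08 to 6.43 and H19 over Igf2 from 2.06 to 4.59, while Igf2r over Igf1r overlaps between groups. The transcripts of the first 2 pairs moved in opposite directions, so their gaps are no separate support.

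In the list of imprinted genes, which holds H19 and not Igf2, 4 rose and 1 fell of 7 tested, with a median of 0.48, beside 17.4% higher and 21.2% lower among all genes tested. Besides H19, Plagl1, a zinc finger factor known to act on Igf2 and H19, rose from 58 ± 3.21 to 105.5 ± 10.6 CPM (0.83 ± 0.07 SE, edgeR adjusted p = 1.32e-07). Peg3 (0.41 ± 0.07) and Mest (0.48 ± 0.12), named after their values were seen, also rose, and Sgce fell (-0.59 ± 0.07). Mest did not pass without eIF3m replicate 1 (0.38, adjusted p = 0.0571).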

How the data were processed

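RNA was sequenced in 6 libraries (3 control, 3 eIF3m siRNA), grouped by their titles. The authors deposited whole-number counts per gene symbol, not normalised. Per the submitters' processing notes, Trimmomatic 0.40, HISAT2 2.2.1, featureCounts, DESeq2 and limma were named, with build rn6; the settings for strand and multi-mapping reads and the annotation were not given in those notes, so overlapping genes, such as antisense transcripts, cannot be told apart.

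Of 31038 rows, 27 symbols turned into dates (0.203% to 0.216% of counts) were left out. In R 4.3.3, edgeR 4.0.16 tested eIF3m against control with TMM scaling, filterByExpr (minimum count 10, minimum total 15; 12724 genes) and the quasi-likelihood F-test, two-sided, adjusted over all genes tested (Benjamini-Hochberg, 0.05). SE is the log2 fold change over the root of F. The step was tested on simulated data. The alternatives, 15 in all, were other scalings and filters, DESeq2 1.42.0, limma-voom 3.58.1, robust dispersion, a replicate block, and each library left out. The members and lists were chosen with earlier results of these data known. From the lists 1 gene is not reported here. Named were Eif3m, all members, some pathway genes whatever they showed, up to 3 called genes per list, and the 5 genes (mean at least 5 CPM) nearest to Igfbp6 and to the called member highest in CPM. RefSeq promoters (GRCr8) matched 10 of 10 members. Intervals and floors cover counting error only. No pair of replicates agreed within sampling noise (mean chi-square per gene 1.78 to 8.73).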

Additional observations from a re-analysis of the deposited data

How the results depend on the processing

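The directions of the 7 tested members held in every alternative that gave a value, and 6 of them passed in all 15: Igf2 ranged from -0.33 to -0.16 (highest adjusted p = 0.0306), Igf1r from -0.49 to -0.29, Igf2r from -0.55 to -0.37, Igfbp4 from 1.06 to 1.299, Igfbp5 from -1.51 to -1.3006 and Igfbp7 from -0.90 to -0.65. Igfbp6 ranged from 2.54 to 6.25. Members called higher numbered 4 with no low-count filter, 1 with DESeq2, which gave Igfbp6 no p-value, and 1 with robust dispersion. With library totals unscaled 4126 genes were called higher and 1684 lower, and with upper-quartile scaling 3015 and 2130, against 2220 and 2700; the medians of all genes were then 0.16 and 0.08. Unscaled, Grb10 (0.18, adjusted p = 0.00725) and Igf2bp2 (0.15, 0.0331) were called higher. A few values near 0 changed sign, none of them called where they did. Stc2 did so with limma-voom (-0.0114) and in leaving out single libraries (-0.0805 without eIF3m replicate 3 to 0.1823 without eIF3m replicate 1), Igf2bp2 with no filter (-0.012) and in leaving out libraries (-0.0365 without eIF3m replicate 1 to 0.0452 without eIF3m replicate 3), and Igf2bp3 with upper-quartile scaling (0.0043), unscaled (0.0806) and in leaving out libraries (-0.1262 without eIF3m replicate 2 to 0.0013 without eIF3m replicate 1). Over 46 genes followed, 635 of 686 alternative values kept direction and side of the threshold. The replicate numbers did not pair the libraries (correlations of same-numbered deviations 0.034, -0.004 and 0.006), and with a replicate block 2123 genes were higher and 2632 lower, with 2 and 5 members. The depth of eIF3m replicate 2, where 3 counts are 1.32 CPM, limits what can be said of Igf1, Igfbp2, Igfbp3 and Igfbp6 there.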
